A study of Mus with 2 samples.

Results

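Endothelial nuclei of interscapular brown adipose tissue (iBAT) were taken from single-nucleus RNA sequencing (snRNA-seq) by a rule on raw counts of unique molecular identifiers (UMIs). A nucleus was a member if it held at least 1 UMI of at least 3 of the 10 genes *Cyyr1*, *Adgrl4*, *Btnl9*, *Cdh13*, *Ptprb*, *Flt1*, *Pecam1*, *Cdh5*, *Ushbp1* and *Dach1*, at most 1 of the 6 genes *Pdgfra*, *Lama2*, *Trpc6*, *Abcc9*, *Adgre1* and *Skap1* (genes of fibroblasts, mural cells, macrophages and T cells), and at most 25% of its UMIs from mitochondrially encoded (mt-) genes. The rule found 1395 members among 18266 nuclei. The *Wtap*flox/flox library gave 727 of them from 9494 nuclei, and the library labelled *Wtap*-BKO gave 668 from 8772.

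The study asked how cell heterogeneity in iBAT differs when *Wtap*, which encodes a subunit of the m6A methyltransferase complex, is deleted in brown adipocytes. Both libraries came from C57BL/6 mice on normal chow at the age of 8 weeks, and both genotypes carried homozygous floxed *Wtap* alleles. The *Wtap*-BKO mice carried *Ucp1*-iCre in addition, a Cre inserted at the gene of the brown adipocyte uncoupling protein, so endothelial cells were not the cells in which deletion was directed. Nuclei were isolated from frozen tissue, and each library pooled 4 mice that cannot be separated afterwards. Each genotype therefore had 1 library and no replicate, no test between genotypes was possible, and no p-value is given.

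Endothelial cells line all blood vessels, and in brown fat they form a dense capillary bed. They respond to vascular endothelial growth factor (VEGF) from the surrounding adipocytes through the receptors FLT1 and KDR. They anchor the lipoprotein lipase made by adipocytes through GPIHBP1, take up the fatty acids it releases, for example through CD36, and pass them on. Arterial, capillary, venous and lymphatic endothelium differ in transcription factors and surface molecules, and venous endothelium is the usual site of leukocyte entry.

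UMIs of the members were summed per library and scaled to a total of 1000000 UMIs over the members (counts per 1000000, CPM). Paired values below are given for *Wtap*flox/flox first and for the library labelled *Wtap*-BKO after it. A log2 ratio compares the second value with the first, so that a positive value means a higher level in the library labelled *Wtap*-BKO. The parentheses after it hold its 95% counting interval. All intervals reflect counting error alone, and the spread between mice or library preparations is not in them. The members held 889529 and 751868 UMIs, with a median of 897 and 819.5 UMIs per nucleus. All other nuclei with at most 25% mt- UMIs, 8175 and 7344 in number, had medians of 958 and 1364 UMIs. The 2 libraries shared 20 cell barcodes, and no shared barcode was a member in both.

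*Wtap* itself did not separate the libraries. In endothelial nuclei it had 45 and 33 UMIs, or 50.6 and 43.9 CPM, with a log2 ratio of -0.20 (-0.90 to 0.48). In nuclei with adipocyte markers, the cells in which *Ucp1*-iCre acts, the counts were 372 and 353 UMIs, for a ratio of -0.02 (-0.24 to 0.19). The UMIs need not come from the floxed part of the gene, so its level does not check the labels.

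The members carried an endothelial profile in genes that the rule did not use. A list of 27 such pan-endothelial genes summed to 4923 and 7263 CPM in the members and to 1659 and 1608 CPM in the other nuclei. *Kdr*, the main VEGF receptor, stood at 191 and 317 CPM in the members against 16.4 and 12.1 CPM in the other nuclei. *Egfl7*, a protein secreted by endothelium, stood at 616 and 866 CPM against 53.5 and 25.9 CPM. *Emcn*, the sialomucin of the vessel lumen, stood at 110.2 and 161 CPM against 9.63 and 4.33 CPM. *Tspan18* of the same list went against it, with 371 and 467 CPM in the members and 884 and 800.3 CPM in the other nuclei, and *Palmd* did so in *Wtap*flox/flox, with 218 against 309 CPM. After thinning every nucleus to 500 UMIs, *Kdr* was found in 9.77% and 17.2% of the members and in 0.596% and 0.301% of adipocyte nuclei, and *Cldn5* in 2.48% and 8.23% of the members and in 0.306% and 0.301% of adipocyte nuclei. Without thinning the shares in the members were 18.3% and 27.2% for *Kdr* and 3.99% and 13.5% for *Cldn5*.

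At a CPM of at least 100 in both libraries, 221 of 1423 genes stood at 2 or more times the level of the other nuclei in both. The 15 genes farthest above the other nuclei, taking the smaller of the log2 ratios of members over other nuclei in the libraries, were *Ablim3*, *Mcf2l*, *Ccdc85a*, *Lnx1*, *Etl4*, *Robo4*, *Bmp6*, *Arhgef15*, *Rasgrp3*, *Tie1*, *Arap3*, *Unc45b*, *Afap1l1*, *Zfp366* and *Kitl*. These smaller values lay between 3.89 and 4.26 on the log2 scale. *Ablim3*, an actin-binding LIM protein, stood at 485 and 652 CPM in the members and at 25.2 and 18.7 CPM in the other nuclei. *Etl4* was found in 64.8% and 74.3% of the members, at 1150 and 1911 CPM against 65.3 and 42.1 CPM. Several of the 15 act in signalling to small GTPases, namely the guanine nucleotide exchange factors *Mcf2l*, *Arhgef15* and *Rasgrp3* and the GTPase-activating protein *Arap3*. Others encode secreted ligands (*Bmp6*, and *Kitl*, the stem cell factor) or endothelial receptors (*Robo4*, a guidance receptor of vessels, and *Tie1*, of the angiopoietin system).

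**Figure D1:**
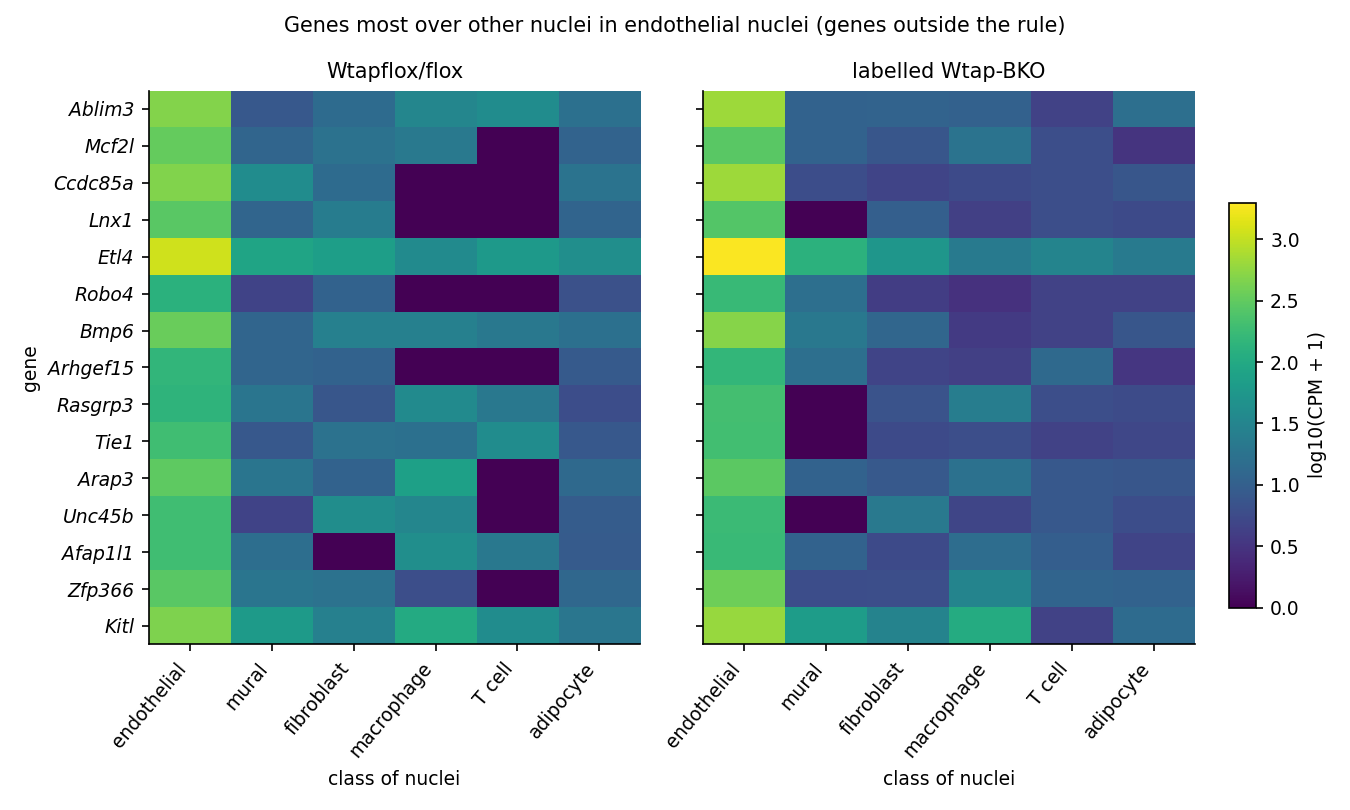
Heat map of the 15 genes (rows) in classes of nuclei (columns: endothelial, mural, fibroblast, macrophage, T cell, adipocyte), one panel per library, with log10(CPM + 1) as colour. The endothelial column is the brightest for each gene in both panels, and *Etl4* reaches 1150 and 1911 CPM there.

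The rule genes chose the members, so their values are a description only. At the threshold, the 208 and 128 members with exactly 3 rule genes had 4285 and 5136 CPM of the pan-endothelial list and a median of 4 of its genes detected. The 302 and 209 nuclei with exactly 2 rule genes, just outside, had 3263 and 2733 CPM and a median of 2 genes detected. These nuclei count among the other nuclei, and their part in the ratios of endothelial genes given there was not tested. Among the members, 9 of the 10 rule genes were higher in the library labelled *Wtap*-BKO, from *Cdh13*, a GPI-anchored cadherin (1189 and 2123 CPM), and *Cyyr1* (706 and 1381 CPM) to *Btnl9* (517 and 545 CPM). *Ushbp1* was the exception, with 655 and 556 CPM.

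Under the rule the shares of endothelial nuclei in the libraries differed by less than their counting intervals, and they depended on depth and mt- content. The share was 7.66% (7.13 to 8.21, exact binomial 95% interval) in *Wtap*flox/flox and 7.62% (7.07 to 8.19) in the library labelled *Wtap*-BKO. When every nucleus was thinned to 500 UMIs, the shares were 4.35% and 5.60%. Among nuclei with at least 1000 UMIs they were 7.12% and 3.87%, and among nuclei with at most 10% mt- UMIs they were 5.86% and 10.7%. The order of the libraries thus turned with the choice of nuclei. A share of nuclei also moves with the number of all other nuclei, and numbers of cells per tissue were not measured.

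The comparison between libraries was first made over all genes. Of 8856 genes that reached 20 UMIs when both libraries were added up, 1029 (11.6%) were at least 2-fold higher in the library labelled *Wtap*-BKO with a counting interval above 0, and 194 (2.19%) were at least 2-fold lower with an interval below 0. The median log2 ratio over all 8856 genes was 0.27, and 68.7% of them lay above 0. This shift moved with the genes that filled the libraries. The mt- genes took 10.8% and 8.25% of the members' UMIs, and *Gm42418*, a locus that overlaps ribosomal RNA, took 14.1% and 7.79%. With both left out of the total, the median was 0.11, with 741 genes higher and 319 lower. With the libraries scaled to a median ratio of 0, 593 genes were higher and 428 lower. Each list is therefore read against the median of 0.27.

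**Figure D2:**
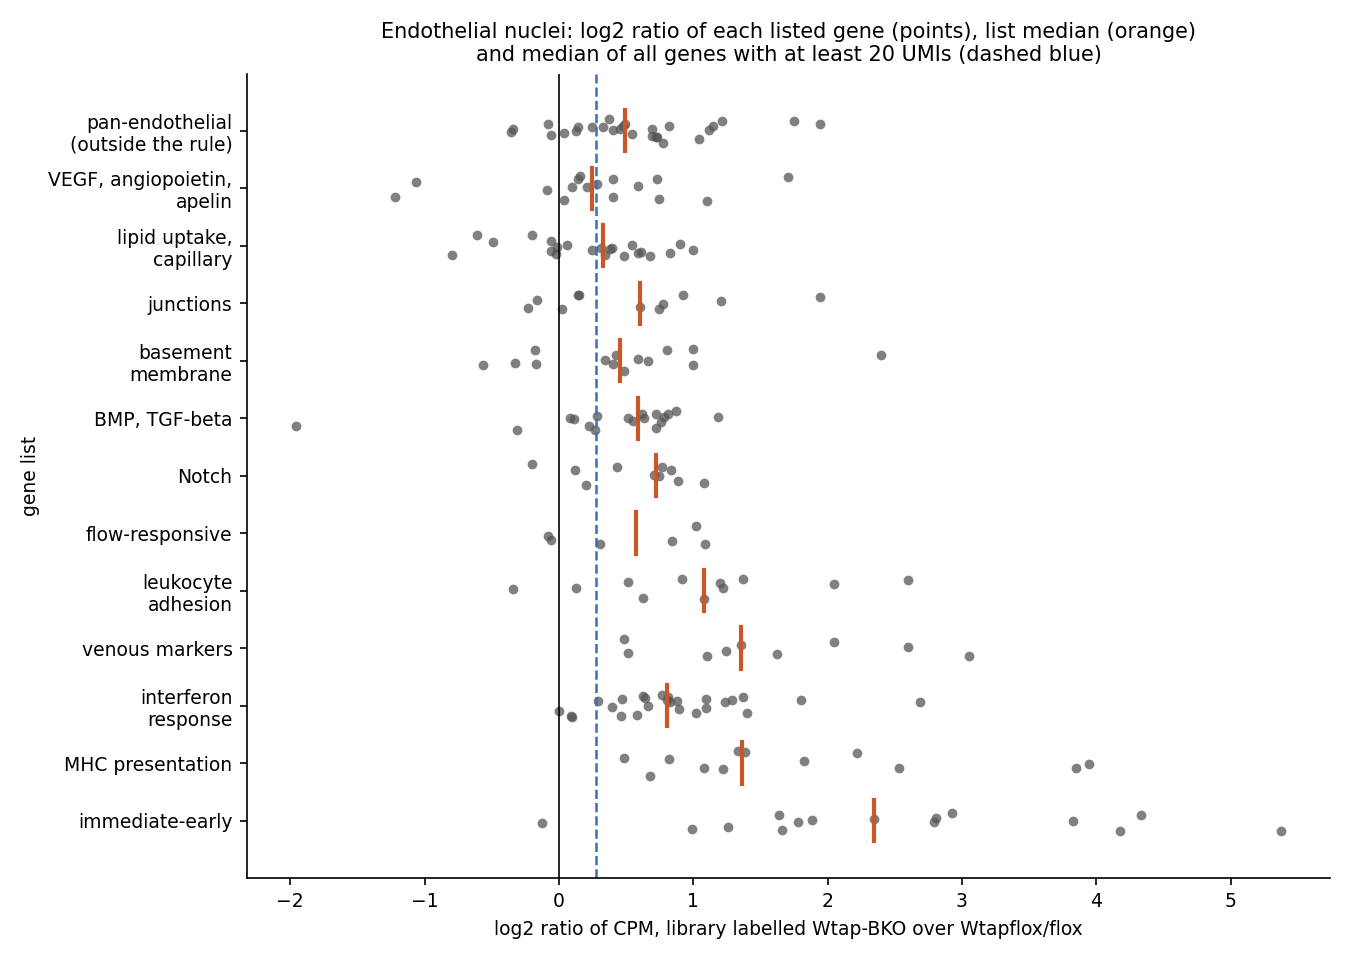
Log2 ratios between the libraries in endothelial nuclei, positive where the library labelled *Wtap*-BKO was higher, with each gene as a point, grouped by gene list, the median of each list as an orange bar and the median of all genes (0.27) as a dashed line. The immediate-early list has its median at 2.34 and the antigen presentation list at 1.36, while the VEGF and angiopoietin list has its median at 0.24.

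Pan-endothelial genes lay modestly above the median of all genes. All 27 genes passed the minimum, 23 lay above 0, and their median was 0.49. At least 2-fold higher were 6 of the 27, beside 11.6% of all genes, and none was 2-fold lower, beside 2.19%. *Cldn5*, the claudin of endothelial tight junctions (chromosome 16, 18776847 to 18778262, GRCm38.p6), stood at 34.9 and 134 CPM, with a log2 ratio of 1.95 (1.35 to 2.58). In other nuclei its log2 ratio was -0.07. *Sox18*, an endothelial transcription factor, stood at 14.6 and 49.2 CPM, a ratio of 1.75 (0.81 to 2.79). *Calcrl* and *Ramp2*, which together form the adrenomedullin receptor, had ratios of 1.21 (0.51 to 1.96) and 1.15 (0.63 to 1.69). The remaining genes past 2-fold were *Tmem204* at 1.12 (0.52 to 1.74) and *Podxl*, a lumenal sialomucin, at 1.04 (0.58 to 1.52). The ETS factors *Erg* (119 and 210.1 CPM) and *Fli1* (618 and 1002 CPM) had ratios of 0.82 and 0.70. *Nos3*, the endothelial nitric oxide synthase, stood at 100.1 and 94.4 CPM, and *S1pr1*, the receptor for sphingosine 1-phosphate, at 138 and 133 CPM, both with intervals that held 0. Among nuclei with 10 to 25% mt- UMIs the median of the list was 0.16, below the 0.25 of all genes there.

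Cell junction genes had a median of 0.61 over 11 genes (-0.07 in the other nuclei), of which 2 were at least 2-fold higher, *Cldn5* and *Magi1*, beside 11.6% of all genes. *Magi1*, a scaffold of adherens and tight junctions, stood at 489 and 1130 CPM, a log2 ratio of 1.21 (1.04 to 1.38). *Ctnna1*, which links junctions to actin, had a ratio of 0.77 (0.50 to 1.05). *Tjp1* and *Afdn* stood at 196 and 215 CPM and at 434 and 442 CPM, with intervals that held 0. The list was thus uneven, and 2 of its 11 genes lay below 0.

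In the VEGF system the ligands *Vegfa* and *Vegfb* were at least 2-fold lower, and the receptors lay on both sides of the median of all genes. *Vegfa*, the central angiogenic ligand (chromosome 17, 46016993 to 46032377), stood at 1261 and 540.0 CPM in endothelial nuclei, a log2 ratio of -1.22 (-1.39 to -1.06). It was also lower in the other nuclei, where it stood at 2877 and 1169 CPM, above the level of the endothelial nuclei in both libraries. After thinning to 500 UMIs it was found in 44.8% (41.2 to 48.5) and 18.1% (15.3 to 21.2) of the members, in 77.1% and 51.4% of adipocyte nuclei and in 65.6% and 16.9% of T cell nuclei. The share in endothelial nuclei was thus no higher than in T cell nuclei beyond counting error, and it is not read as expression of *Vegfa* by endothelium. *Vegfb* stood at 52.8 and 25.3 CPM, a ratio of -1.06 (-1.92 to -0.27). *Kdr* (chromosome 5, 75932827 to 75979072) was higher in the library labelled *Wtap*-BKO, with a ratio of 0.73 (0.44 to 1.02), while it lay at -0.44 in other nuclei. The coreceptor *Nrp1* stood at 574 and 758 CPM, a ratio of 0.40 (0.23 to 0.58). The other receptors had ratios of 0.28 (0.13 to 0.43) for *Flt1*, which is also a rule gene, 0.16 (-0.59 to 0.90) for *Flt4* and 0.10 (-0.16 to 0.35) for *Nrp2*, beside 0.27 for all genes. Among members over 10% mt- UMIs the ratio of *Flt1* was -0.11.

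The angiopoietin receptors showed no difference beyond counting error. *Tek* stood at 268 and 295 CPM, a log2 ratio of 0.14 (-0.13 to 0.41), and *Tie1* at 193 and 198 CPM, a ratio of 0.04 (-0.29 to 0.36). *Pdgfb*, the ligand by which endothelium recruits pericytes, stood at 175 and 165 CPM, a ratio of -0.09 (-0.44 to 0.26). *Vegfc*, the lymphatic growth factor, rested on 8 and 22 UMIs, a ratio of 1.70 (0.48 to 3.08). Of 16 genes past the minimum, 1 was at least 2-fold higher and 2 were at least 2-fold lower, beside 11.6% and 2.19% of all genes. The median was 0.24, just below the 0.27 of all genes. Scaling the libraries to a median ratio of 0 moves all genes alike, so it necessarily put this median below 0, at -0.03.

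Genes of fatty acid uptake and of capillaries lay close to the median of all genes, with a median of 0.33 over 22 genes (0.09 in the other nuclei) and none called 2-fold in either direction, beside 11.6% higher and 2.19% lower of all genes. *Cd36*, the fatty acid translocase (chromosome 5, 17781690 to 17888959), stood at 1519.9 and 2841 CPM, a log2 ratio of 0.90 (0.80 to 1.0). It was found in 54.2% (50.5 to 57.9) and 76.3% (72.9 to 79.5) of the members after thinning, and in 41.2% and 44.0% of adipocyte nuclei, which also use it. Its ratio in the other nuclei was 0.01. *Fabp4*, a fatty acid binding protein of capillaries and adipocytes alike, stood at 2978 and 4752 CPM, a ratio of 0.67 (0.60 to 0.75), with 1.03 in the other nuclei. *Cavin1*, a coat protein of caveolae, had a ratio of 1.0 (0.70 to 1.29), and *Cavin2* had 0.59 (0.33 to 0.85). *Gpihbp1*, the anchor of lipoprotein lipase (chromosome 15, 75596630 to 75598213), stood at 243 and 317 CPM, a ratio of 0.38 (0.11 to 0.65). *Meox2* and *Tcf15*, transcription factors that together drive fatty acid transport in capillaries, stood at 79.8 and 112 CPM and at 27.0 and 26.6 CPM.

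Of these 22 genes 8 lay below 0, and the intervals of *Acsl1*, *Vldlr* and *Pparg* did not hold 0. *Acsl1*, a fatty acyl-CoA synthetase, stood at 1892 and 1088 CPM, a log2 ratio of -0.80 (-0.92 to -0.68), and *Pparg*, the fat cell nuclear receptor that capillaries also express, at 1834 and 1307 CPM, a ratio of -0.49 (-0.60 to -0.37). In the other nuclei the same genes had ratios of -0.69 and -1.25 and higher CPM in *Wtap*flox/flox, 4366 and 2628. *Vldlr*, a lipoprotein receptor, stood at 134 and 87.8 CPM, a ratio of -0.61 (-1.06 to -0.16), with -0.32 in the other nuclei, but among members over 10% mt- UMIs its ratio was 0.39. *Lpl*, the lipase itself, stood at 1006 and 966 CPM, a ratio of -0.06 (-0.20 to 0.08).

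Arterial genes had a median of 0.75 over 11 genes, and venous genes a median of 1.36 over 9 genes, all 9 above 0. In the other nuclei these medians were -0.04 and 1.31. *Mecom*, a transcription factor of arterial endothelium, stood at 352 and 878 CPM, a log2 ratio of 1.32 (1.12 to 1.52). *Efnb2*, the arterial ephrin, stood at 83.2 and 62.5 CPM, a ratio of -0.41 (-0.97 to 0.13), so arterial genes lay on both sides of 0. The venous genes were rare. *Tll1*, a metalloprotease, rested on 6 and 42 UMIs, a ratio of 3.05 (1.81 to 4.58), and *Vwf*, the clotting factor stored in endothelium, on 10 and 26 UMIs, a ratio of 1.62 (0.52 to 2.84). *Nr2f2*, the transcription factor that sets venous identity, stood at 48.3 and 69.2 CPM, a ratio of 0.52 (-0.09 to 1.13). At least 2-fold higher were 3 of the 11 arterial and 6 of the 9 venous genes, beside 11.6% of all genes. Of the 9 lymphatic genes 1 passed the minimum, *Flt4*, and *Lyve1* had 0 UMIs in both libraries.

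Leukocyte adhesion genes had a median of 1.08 over 11 genes (0.76 in the other nuclei), of which 6 were at least 2-fold higher, beside 11.6% of all genes. *Vcam1* and *Icam1*, which bind leukocyte integrins, stood at 10.1 and 61.2 CPM and at 13.5 and 55.9 CPM, with log2 ratios of 2.60 (1.55 to 3.81) and 2.05 (1.10 to 3.11). Both belong to the venous list too and count among the 2-fold higher genes of both lists. They were also higher in the other nuclei, by 1.92 and 2.55. The junctional adhesion molecules *Jam2* (91.1 and 193 CPM) and *F11r* (125 and 291 CPM) had ratios of 1.08 (0.68 to 1.49) and 1.22 (0.89 to 1.57), against -0.39 and 0.12 in the other nuclei. The selectins *Sele* and *Selp* and the chemokine receptor *Ackr1* had 0 UMIs among the *Wtap*flox/flox members, where the floor of 3 UMIs is 3.37 CPM. Among the members labelled *Wtap*-BKO *Selp* was present on few UMIs.

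Genes that respond to laminar flow and to bone morphogenetic proteins (BMP) were in part higher. *Klf2* and *Klf4*, the transcription factors induced by laminar flow, stood at 145 and 294 CPM and at 200.1 and 424 CPM, with log2 ratios of 1.02 (0.70 to 1.34) and 1.08 (0.82 to 1.36), against 1.03 and 0.55 in the other nuclei. The 6 flow-responsive genes had a median of 0.57, with 2 below 0, and of 0.99 in the other nuclei. *Id1*, a target of BMP signalling, stood at 161 and 364 CPM, a ratio of 1.18 (0.88 to 1.48), with 0.59 in the other nuclei. Receptors of this pathway had ratios of 0.76 (0.32 to 1.21) for *Bmpr2* and -0.31 (-1.01 to 0.37) for *Acvrl1*. *Pmepa1*, an inhibitor induced by TGF-beta (chromosome 2, 173224458 to 173276731), was the lowest gene of the list, with 510.4 and 132 CPM and a ratio of -1.95 (-2.28 to -1.64). In the other nuclei it stood at 1316 and 283 CPM, a ratio of -2.22. The BMP and TGF-beta list had a median of 0.59 over 18 genes, with 1 called higher and 1 lower, beside 11.6% and 2.19% of all genes, and its median in the other nuclei was 0.42. In the Notch list, with a median of 0.72 over 10 genes, *Rbpj*, the DNA-binding factor of the pathway, was called higher at 1.08 (0.61 to 1.56). *Notch1* and *Notch4* stood at 108 and 184 CPM and at 75.3 and 86.5 CPM.

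Basement membrane genes had a median of 0.46 over 14 genes. The collagen IV chains, the core of the vascular basement membrane, stood at 354 and 476 CPM (*Col4a1*) and at 377 and 335 CPM (*Col4a2*), with log2 ratios of 0.43 (0.20 to 0.65) and -0.17 (-0.41 to 0.07). *Lamc1* had a ratio of 1.0 (0.59 to 1.42) and *Lamb2* one of -0.56 (-1.07 to -0.08), so laminin subunits lay on both sides of 0. *Col15a1* rested on 9 and 40 UMIs, a ratio of 2.39 (1.33 to 3.62), and was higher in the other nuclei by 1.49.

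Immediate-early genes, transcribed within minutes of a stimulus, differed most of all lists with 10 or more genes past the minimum. Of 15 such genes, 14 lay above 0 and 13 were at least 2-fold higher, beside 11.6% of all genes, and the median was 2.34. *Egr1*, a zinc-finger transcription factor, had 18 and 275 UMIs, or 20.2 and 366 CPM, a log2 ratio of 4.18 (3.49 to 4.95). *Ccn1*, a matricellular protein (chromosome 3, 145646971 to 145649985), had 14 and 238 UMIs, or 15.7 and 317 CPM, a ratio of 4.33 (3.56 to 5.22). *Dusp1*, a phosphatase of MAP kinases (chromosome 17, 26505591 to 26508472), stood at 56.2 and 389.7 CPM, a ratio of 2.79 (2.36 to 3.26). *Fos* had 1 and 35 UMIs, a ratio of 5.37 (2.80 to 10.72). *Junb*, *Jund* and *Jun*, its partners in AP-1, had ratios of 2.92, 2.34 and 1.26. *Nr4a2* was the exception, with 22 and 17 UMIs and a ratio of -0.13 (-1.13 to 0.85).

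The signal was spread over many nuclei. After thinning to 500 UMIs, 19.1% (16.3 to 22.2) of the *Wtap*flox/flox members and 62.7% (58.9 to 66.4) of the members labelled *Wtap*-BKO held at least 1 of the immediate-early genes. At least 2 of them were found in 2.34% and 28.7%, and at least 3 in 0 of 727 members and in 9.58% (7.46 to 12.1) of the members labelled *Wtap*-BKO. The count of 0 allows a share of up to 0.506% by the exact interval. Most other classes of nuclei, assigned by markers, were higher in the library labelled *Wtap*-BKO too. At least 1 gene was found in 14.7% and 40.4% of adipocyte nuclei, in 11.1% and 58.4% of mural nuclei, in 24.6% and 61.1% of fibroblast nuclei and in 20.8% and 39.1% of macrophage nuclei. In T cell nuclei the shares were 18.8% (7.21 to 36.4) and 32.6% (27.9 to 37.5), with intervals that overlapped. The list had a median of 2.28 in all other nuclei together, so the difference was not limited to endothelium.

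**Figure D3:**
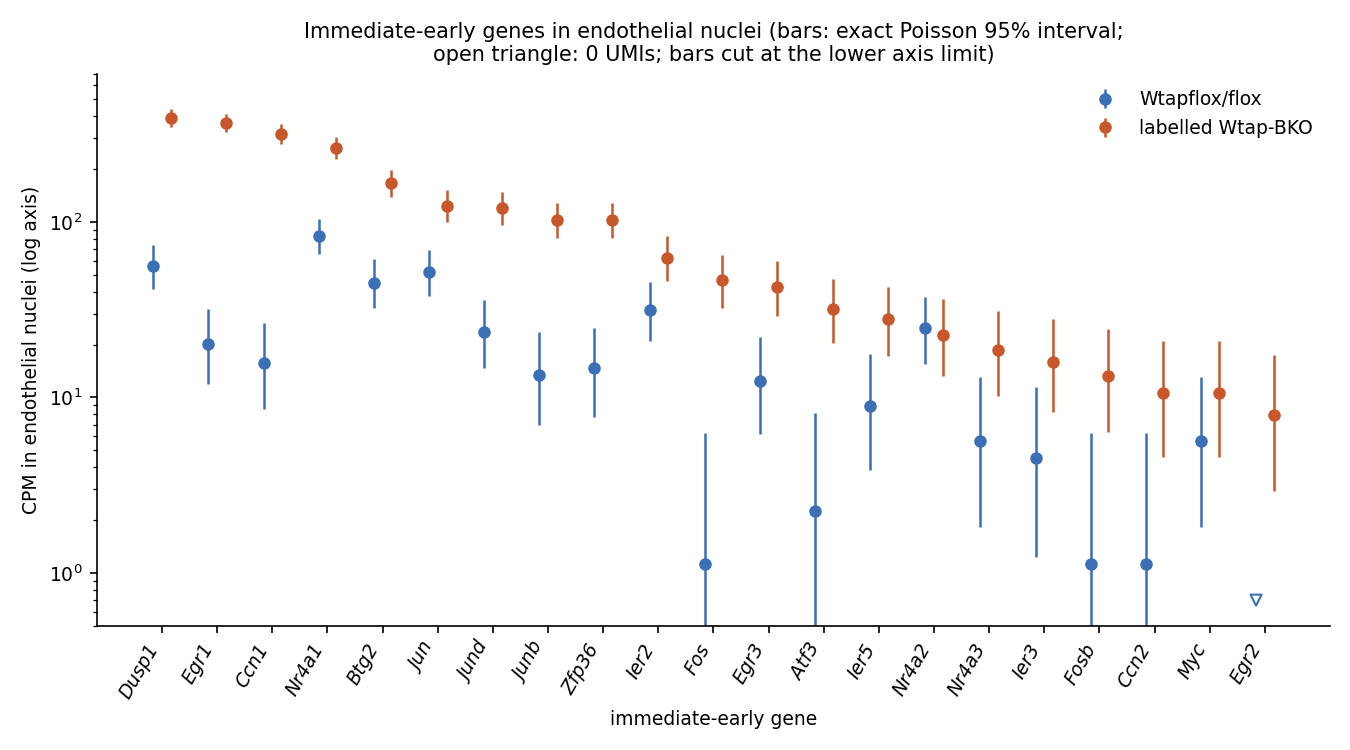
CPM of the 21 listed immediate-early genes in endothelial nuclei of both libraries on a log axis, with exact Poisson 95% intervals as bars and an open triangle for 0 UMIs. *Dusp1* sits at 56.2 and 389.7 CPM, and *Nr4a2* is the gene whose point is lower in the library labelled *Wtap*-BKO.

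Antigen presentation genes were higher without exception. All 12 lay above 0, beside 68.7% of all genes, 9 were at least 2-fold higher, beside 11.6%, and the median was 1.36. Class I genes carried most of the counts. *H2-K1* stood at 1121 and 2612 CPM, a log2 ratio of 1.22 (1.11 to 1.33), and was found in 45.1% and 74.9% of the members after thinning. *B2m*, the light chain of class I molecules, stood at 325 and 849 CPM, a ratio of 1.39 (1.18 to 1.59), and *H2-D1* at 435 and 767 CPM, a ratio of 0.82 (0.63 to 1.01). Class II genes were scarce in *Wtap*flox/flox members. *H2-Aa* had 6 and 73 UMIs, a ratio of 3.85 (2.66 to 5.34), *H2-Ab1* 18 and 88 UMIs, a ratio of 2.53 (1.79 to 3.35), and *Cd74*, the invariant chain, 50 and 150 UMIs, a ratio of 1.83 (1.36 to 2.32). In the other nuclei the list had a median of 2.31, and *Cd74* stood there at 68.0 and 377 CPM, above its 56.2 and 199.5 CPM in endothelial nuclei.

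Interferon response genes had a median of 0.81 over 26 genes, 25 of them above 0 and 9 at least 2-fold higher, beside 68.7% and 11.6% of all genes. *Gbp2*, an interferon-induced GTPase, stood at 20.2 and 130.3 CPM, a log2 ratio of 2.69 (1.95 to 3.50). *Irf1*, a transcription factor of the interferon response, had a ratio of 1.80 (1.27 to 2.36), and *Iigp1*, a GTPase, stood at 199 and 469.5 CPM, a ratio of 1.24 (0.97 to 1.51). The components of the type I interferon complex *Stat2* and *Irf9* stood at 232 and 247 CPM and at 66.3 and 70.5 CPM, with intervals that held 0. In the other nuclei the median of the list was 1.61.

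Among insulin and glucose genes, with a median of 0.32 over 11 genes, the receptor and its adaptors lay apart. *Insr*, the insulin receptor, stood at 173 and 154 CPM, a log2 ratio of -0.17 (-0.53 to 0.19). The receptor substrates *Irs1* and *Irs2* stood at 52.8 and 117 CPM and at 41.6 and 98.4 CPM, with ratios of 1.15 (0.62 to 1.69) and 1.24 (0.65 to 1.85). Their ratios in the other nuclei were 1.35 and 1.22.

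Genes higher in the members than in the pooled other nuclei, at 100 CPM or more in at least 1 library and with a mean over the libraries of 2 or more times that of the other nuclei, numbered 354. A gene could enter through the library where it stood higher, so the set as a whole is not read for direction. Most of the other nuclei were adipocyte nuclei, and some genes of the set stood higher in a smaller class, as *Zfpm2* did in fibroblast nuclei (724 and 885 CPM), *Ppp1r16b* in T cell nuclei (197 and 287 CPM) and *Rasgrp2* in mural nuclei (342 and 251 CPM). The 12 highest were *Ccn1*, *Egr1*, *Dusp1*, *Gm10800*, *Cldn5*, *Clic4*, *Adamts1*, *Zfpm2*, *Phactr1*, *Ly6a*, *Ppp1r16b* and *Epb41l4a*, from 4.33 down to 1.51, and 10 of these 12 stood under 100 CPM in *Wtap*flox/flox. *Clic4*, a chloride intracellular channel protein, stood at 137 and 504 CPM, a ratio of 1.88 (1.58 to 2.18). *Adamts1*, a secreted metalloprotease, had 1.79 (1.32 to 2.28), and *Ly6a*, the surface antigen Sca-1, had 1.56 (1.05 to 2.09). *Epb41l4a*, of the band 4.1 family, stood at 92.2 and 263 CPM, a ratio of 1.51 (1.14 to 1.90), with 0.05 in the other nuclei.

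The 12 lowest of the same 354 ran from -0.96 to -0.25. They were *Hbb-bs*, *Ltbp4*, *Syne1*, *Ripor1*, *Slc9a3r2*, *Rasgrp2*, *Stard9*, *Als2cl*, *Pcdh1*, *Ybx1*, *Bcl2l1* and *Rasal2*. *Syne1*, which encodes nesprin-1 of the nuclear envelope, stood at 402 and 250.0 CPM, a ratio of -0.69 (-0.95 to -0.43), whereas in the other nuclei it stood at 49.1 and 79.1 CPM, a ratio of 0.69. *Ltbp4*, a binding protein of latent TGF-beta, stood at 179.9 and 110.4 CPM, a ratio of -0.70 (-1.10 to -0.31). *Hbb-bs*, the beta-globin of red cells, stood at 143 and 73.2 CPM, a ratio of -0.96 (-1.45 to -0.50), and 19 of its 55 UMIs labelled *Wtap*-BKO lay in 1 nucleus. The intervals of *Rasgrp2*, *Stard9*, *Als2cl*, *Pcdh1*, *Ybx1* and *Bcl2l1* held 0.

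Over all 2099 genes with at least 100 CPM in at least 1 library, whatever their level in the other nuclei, the highest besides *Ccn1*, *Egr1* and *Junb* were *Igkc*, *Lyz2* and *Ccdc80*. *Igkc*, the immunoglobulin kappa constant region, had 8 and 125 UMIs, a log2 ratio of 4.21 (3.19 to 5.45), but 83 of the 125 lay in 1 nucleus, and the ratio without the nucleus richest in the gene was 2.83. The lowest were *A530020G20Rik* at -4.24 (-5.58 to -3.17), *Cox7a1*, a subunit of cytochrome c oxidase, at -2.05 (-2.82 to -1.35), *Apoc1*, an apolipoprotein, at -2.03 (-2.65 to -1.46), *Rgs2*, a regulator of G protein signalling, at -2.01 (-2.40 to -1.63), *A530065N20Rik* at -1.98 (-2.59 to -1.42) and *Pmepa1*. None of these 6 stood at 2 or more times the level of the other nuclei. All of them were also lower in the other nuclei, with ratios of -3.87 for *A530020G20Rik*, -0.69 for *Cox7a1*, -1.14 for *Apoc1*, -2.38 for *Rgs2* and -1.89 for *A530065N20Rik*.

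RNA of other cell types was present in the members and moved with the library. Macrophage nuclei made up 1.87% and 10.1% of all nuclei and T cell nuclei 0.337% and 4.45%. The 15 adipocyte markers summed to 7443 and 7089 CPM in the members, against 13297 and 13700 CPM in the other nuclei, and none of them was at 0. Their median log2 ratio was 0.07, with *Fasn*, the fatty acid synthase, at 1.92 (1.67 to 2.17) and *Cidea*, a lipid droplet protein of brown fat, at -1.12 (-1.33 to -0.92), against 2.01 and -0.80 in the other nuclei. Fibroblast markers summed to 482 and 1439 CPM, with 9 of 12 past the minimum and a median of 1.61. Macrophage markers summed to 217 and 779 CPM, with 10 of 12 past the minimum and a median of 1.94. T cell markers summed to 78.7 and 217 CPM (4 of 10, with *Cd3g* at 0 in *Wtap*flox/flox), B and plasma cell markers to 32.6 and 283 CPM (2 of 9, with *Cd79b* and *Pax5* at 0 in *Wtap*flox/flox), mural markers to 365 and 261 CPM (6 of 12, with *Higd1b* at 0 in *Wtap*flox/flox), and erythroid genes to 298 and 164 CPM (4 of 5, with *Alas2* at 0 in the library labelled *Wtap*-BKO). The part of this RNA in the values of class II, interferon, *Vegfa* and other shared genes was not tested.

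The 10% mark of mt- UMIs divided the members of both libraries. Of the *Wtap*flox/flox members 271 of 727, or 37.3% (33.8 to 40.9), held 10 to 25% mt- UMIs, and of the members labelled *Wtap*-BKO 122 of 668, or 18.3% (15.4 to 21.4). These nuclei were deeper, with a median of 1213 and 1306.5 UMIs against 738 and 785 UMIs below 10%. Within each library, CPM without mt- genes was compared between nuclei over and under 10%. In *Wtap*flox/flox 3.89% of 6268 genes were at least 2-fold higher over 10% and 7.26% at least 2-fold lower. In the library labelled *Wtap*-BKO these shares were 4.51% and 5.53% of 6603 genes. Of 5739 genes measured in both, 65 were higher and 26 lower in both libraries, and 62.0% had the same sign.

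Nuclei rich in mt- RNA carried less of the endothelial profile. The pan-endothelial list summed to 6288 CPM under 10% and 4579.8 CPM over 10% in *Wtap*flox/flox, and to 8712 and 5453 CPM in the library labelled *Wtap*-BKO. Its median log2 ratio of nuclei over against under 10% was -0.51 and -0.70, below the -0.33 and -0.11 of all genes. Mural markers went the other way, with 312 and 529.7 CPM in *Wtap*flox/flox and 230 and 451 CPM in the library labelled *Wtap*-BKO. Adipocyte markers differed between the libraries, with 8499 and 8159 CPM in *Wtap*flox/flox and 6612 and 11172 CPM in the library labelled *Wtap*-BKO, where all 15 were higher over 10%. Schwann cell markers stood at 87.1 and 207 CPM in *Wtap*flox/flox and at 113 and 225 CPM in the library labelled *Wtap*-BKO, and erythroid genes at 181 and 521 CPM and at 88.2 and 457 CPM. *Gm42418* took 10.5% of UMIs under and 17.9% over 10% in *Wtap*flox/flox, and 7.15% and 9.56% in the library labelled *Wtap*-BKO. The part of these in the lower endothelial CPM was not tested.

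By the smaller of the ratios in both libraries, the highest genes over 10% were *Gatd3a*, *Hba-a1*, *Ndufb8*, *Hint2*, *Cox7a1* and *Csmd1*. *Ndufb8*, a nuclear-encoded subunit of complex I, stood at 117 CPM under and 364 CPM over 10% in *Wtap*flox/flox and at 84.4 and 255 CPM in the library labelled *Wtap*-BKO, with log2 ratios of 1.64 (1.16 to 2.14) and 1.60 (0.96 to 2.24). *Cox7a1* had ratios of 1.47 and 2.52, and *Hba-a1*, an alpha-globin, 2.33 and 1.63. Among the lowest were *Arhgap10*, *Zdhhc20*, *Ntf3* and *Card10*. *Arhgap10*, a GTPase-activating protein, had ratios of -1.66 (-3.0 to -0.51) and -1.88 (-3.56 to -0.58), and *Card10*, a scaffold of NF-kappaB signalling, had -1.19 and -1.56. The counts of these 4 genes over 10% were small, from 5 to 19 UMIs.

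**Figure D4:**
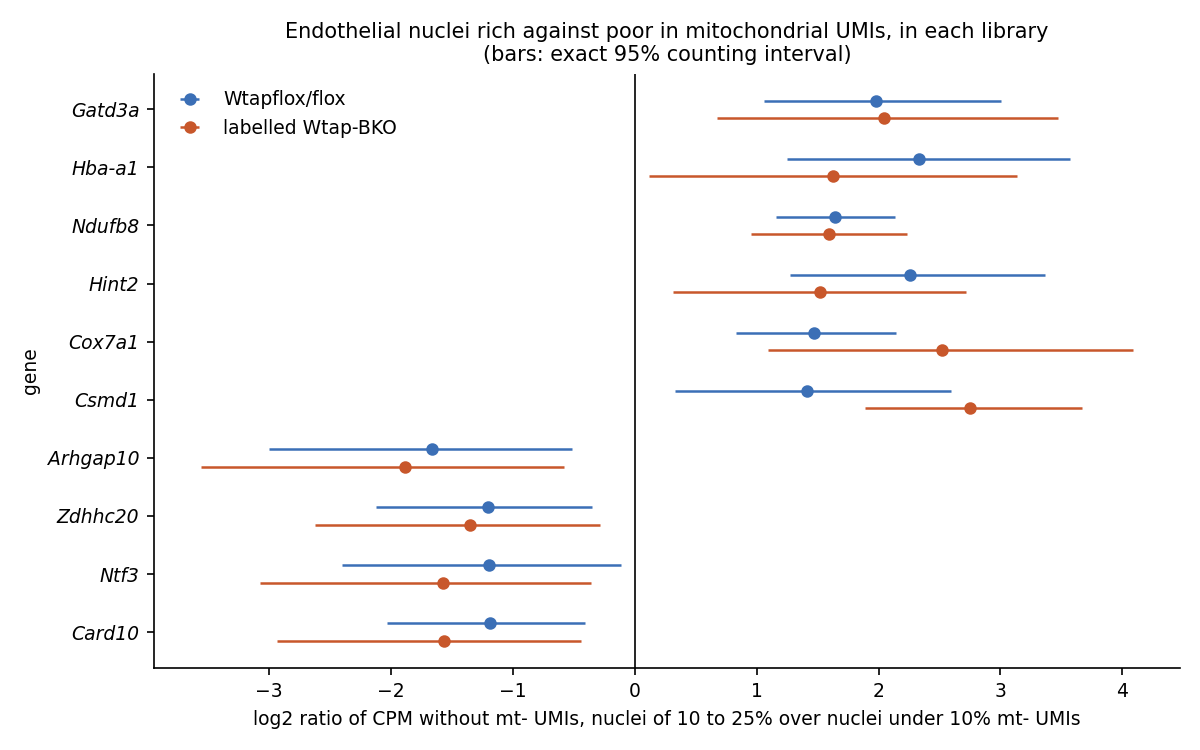
Log2 ratio of CPM without mt- UMIs, endothelial nuclei over 10% against under 10% mt- UMIs, for the 10 genes named (rows) in each library (colour), with exact 95% counting intervals as bars. *Ndufb8* lies at 1.64 and 1.60 and *Arhgap10* at -1.66 and -1.88.

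The difference in immediate-early genes was present on both sides of the 10% mark. Between libraries, the list had a median log2 ratio of 2.40 among nuclei with at most 10% mt- UMIs and of 2.78 among those over 10%. Antigen presentation genes had 1.19 and 1.13. Interferon response genes had 0.82 and 0.43, and venous genes 1.58 and 0.42, against 0.13 and 0.25 for all genes.

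The members of each library were grouped separately by similarity of expression, without the rule genes and the adipocyte markers, which gave 6 sub-groups of *Wtap*flox/flox and 7 of the library labelled *Wtap*-BKO. The leading genes that define a sub-group are given as a description, in CPM without mt- UMIs against the other members of the same library. In the library labelled *Wtap*-BKO, 1 sub-group of 91 nuclei was venous-like, with *Il1r1* and *Tll1* among its 10 leading genes. Its venous markers summed to 1543 CPM against 495 CPM in the other members, with *Vwf* at 147 against 23 CPM, *Selp* at 85.7 against 4.93 CPM and *Plvap*, of the diaphragms of fenestrae, at 85.7 against 8.22 CPM. *Selp* and *Plvap* rested on few UMIs, and the remaining venous genes of this sub-group are not reported here. Its arterial list stood at 1947 against 1593 CPM. The sub-group was led by *Lhx6*, *Thsd7a*, *Dnm3* and *Kirrel3*. In *Wtap*flox/flox a sub-group of 112 nuclei was also led by *Kirrel3*, with venous markers at 429 against 226 CPM. Its venous genes *Il1r1* and *Icam1* had log2 ratios over the other members of 2.22 (0.70 to 3.67) and 3.68 (1.78 to 5.86), on 8 UMIs each. No venous gene reached the 15 UMIs asked of a leading gene there, although 9 venous markers were detected. This sub-group was left unnamed by that condition, so a venous-like name in 1 library does not set the libraries apart.

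Among the leading genes of other sub-groups were single genes of capillaries and of the interferon response. A sub-group of 176 nuclei labelled *Wtap*-BKO was led by *Egflam*, *Gpihbp1* and *Stxbp6*, with *Gpihbp1* at 699 against 271 CPM. Its lymphatic list summed to 227 against 66.5 CPM with 6 of the 9 genes detected, and *Flt4*, the receptor of VEGF-C, had 14 and 18 UMIs, or 118 against 31.5 CPM. A sub-group of 154 nuclei was led by *Eml1*, *Cdkn1c* and *Vsig2* and held *Car4*, a carbonic anhydrase of capillaries, at 469.8 against 162 CPM and *Kdr* at 681 against 269 CPM. In these sub-groups of 176 and 154 nuclei the lipid uptake and capillary list stood only 0.16 and 0.19 over the other members on the log2 scale. The rule genes stood 0.49 and 0.77 over them, and the pan-endothelial genes 0.30 and 0.58. A sub-group of 59 nuclei was led by *Col28a1*, *Ephb1*, *Pcdh17* and the junction scaffold *Magi1*, which stood at 3264 against 1035 CPM. In *Wtap*flox/flox the largest sub-group, of 266 nuclei, was led by *Hpcal1*, *Gm12002* and *St6galnac3* and held *Syne1* at 898 against 276 CPM. Its arterial list stood at 1318 against 762 CPM, with log2 ratios over the other members of 1.40 (0.61 to 2.19) for *Sox17* and 1.11 (0.41 to 1.81) for *Efnb2*, but its pan-endothelial genes and rule genes stood higher over the other members, by 1.03 and 1.10, than the arterial list, by 0.79. *Jag1* of the arterial list had -1.01 (-2.43 to 0.17). *Gbp4* and *Nlrc5*, both induced by interferon, were among the leading genes of the 112 nuclei named above, with *Gbp4* at 503 against 201 CPM. A sub-group of 136 nuclei stood apart by a median of 15.2% mt- UMIs, and *Cmss1* and *Lars2* were among its leading genes.

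The remaining sub-groups passed thresholds for genes of other lineages, which were set after seeing the data. In *Wtap*flox/flox, 163 nuclei were led by *A530053G22Rik*, *Gm17167* and *Ppara*, with adipocyte markers at 11690 against 6582 CPM, 38 nuclei by *Cacna1c*, *Cadm2* and *Tbx5*, with mural markers 2.61 and fibroblast markers 1.87 over the other members on the log2 scale and the Schwann cell markers *Cadm2* and *Cdh19* among the leading genes, and 12 nuclei by *Ptprc*, the leukocyte common antigen. In the library labelled *Wtap*-BKO, 130 nuclei led by *Ighg2b*, *Gm17167* and *A530053G22Rik* had adipocyte markers at 13680 against 4760 CPM, and 22 nuclei were led by *F13a1* and *Gm2682*. Some of these genes rested in part on 1 nucleus. This held for 12 of 30 *Cadm2* UMIs in *Wtap*flox/flox and 18 of 39 *F13a1* UMIs labelled *Wtap*-BKO. The 130 nuclei held 93 of the 125 *Igkc* UMIs labelled *Wtap*-BKO, and 83 lay in 1 nucleus. How *Ighg2b* was spread over nuclei was not measured. A sub-group of 36 nuclei was led by *Col8a1*, *Nebl*, *Eln* and *Mgp* together with the fibrillar collagens *Col3a1*, *Col1a1* and *Col1a2*, and its fibroblast markers stood 2.22 on the log2 scale over the other members. Of its 208 fibroblast marker UMIs 154 lay in 1 nucleus, with 45 of 48 for *Col1a1* and 38 of 41 for *Col3a1*, and without that nucleus the value was 0.37. Its arterial markers stood 2.20 over the other members without that nucleus, with *Sema3g* at 658 against 101 CPM and *Fbln2* at 389 against 30.5 CPM over all 36. Its rule genes stood at 10054 against 9283 CPM. *Vegfc* and *Fbln2* of the arterial list, with log2 ratios of 4.03 (2.66 to 5.37) and 3.67 (2.54 to 4.75), rested on 10 and 13 UMIs there. In all, 15 arterial markers were detected, and pan-endothelial genes stood at 9634.7 against 7828.5 CPM. Venous markers stood at 1167 against 591 CPM, so they were higher not only in the venous-like sub-group of 91 nuclei. The sub-group of 36 nuclei had passed the threshold for fibroblast markers through 1 nucleus and was left unnamed. The sub-groups past the thresholds for other lineages, these 36 nuclei included, held 213 and 188 members in all. Without them the shares were 5.41% and 5.47%, the median of the immediate-early list was 2.44, that of antigen presentation 1.25 and that of pan-endothelial genes 0.62, beside 0.36 for all genes. With the 36 nuclei kept but for that 1, these medians were 2.49, 1.22 and 0.70, beside 0.36.

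**Figure D5:**
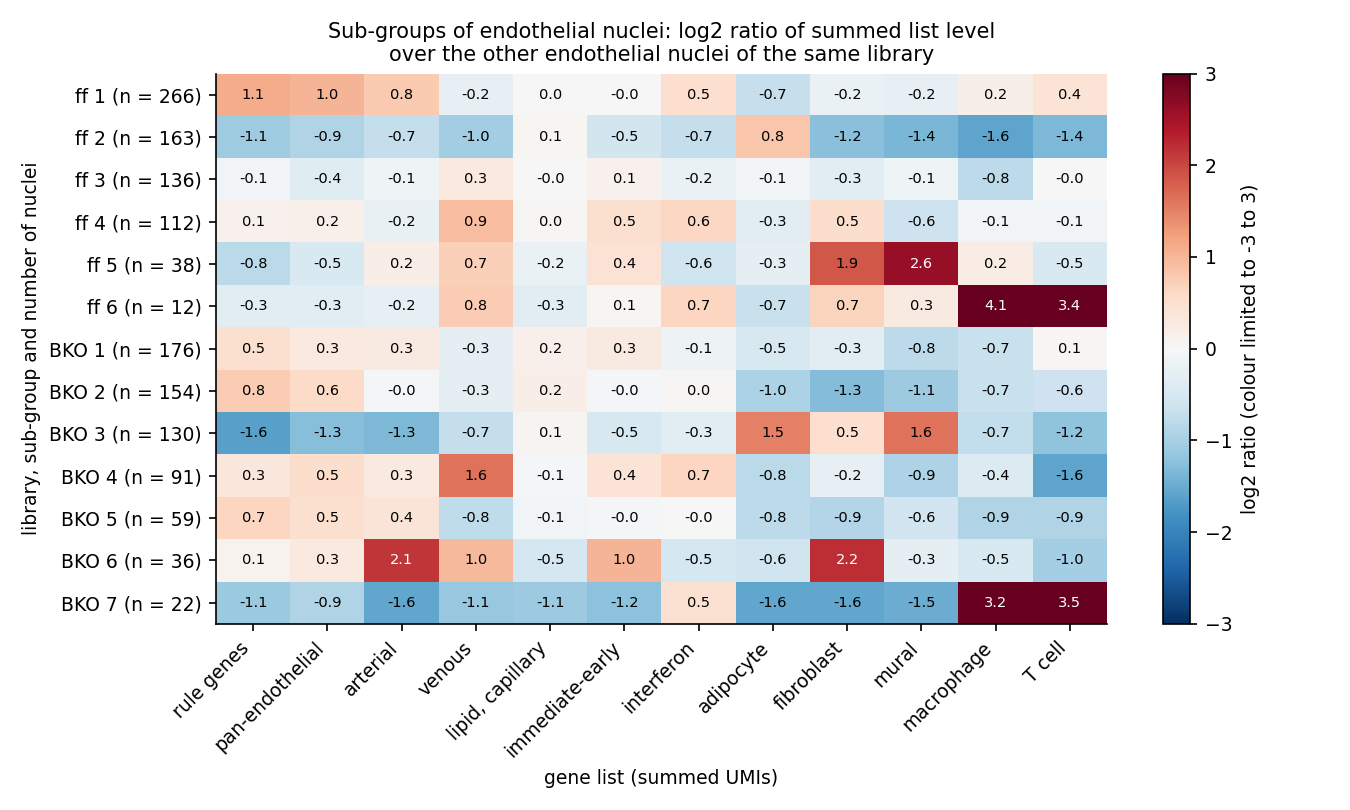
Sub-groups of endothelial nuclei in each library (rows) by gene list (columns), with the log2 ratio of the summed CPM of the list in the sub-group over the other members of its library as colour and number. In the library labelled *Wtap*-BKO the venous list is at 1.64 in the sub-group of 91 nuclei and the arterial list at 2.13 in the sub-group of 36 nuclei.

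Fibroblast genes in endothelial nuclei rested in part on few nuclei. *Col1a1* had 41 and 121 UMIs, a log2 ratio of 1.80 (1.28 to 2.35), of which 45 lay in 1 nucleus labelled *Wtap*-BKO, and the ratio without the richest nucleus of each library was 1.36. *Col3a1* had 32 and 98 UMIs, a ratio of 1.86 (1.27 to 2.48), of which 38 lay in 1 nucleus, and the ratio without the richest nuclei was 1.33. *Fbn1*, the fibrillin of elastic fibres, had 13 and 55 UMIs, a ratio of 2.32 (1.43 to 3.32).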

How the data were processed

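Brown fat nuclei of both genotypes were profiled by snRNA-seq with 1 library each. The authors deposited raw UMI counts per gene and barcode, made with Cell Ranger 5.0.0 per the file headers. The submitters' processing notes also name Trimmomatic, FastQC, Seurat and the build mm10. The files list 32285 genes, 38 symbols among them repeated, and no nucleus under 500 UMIs.

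The members and gene lists were chosen with earlier results of these data known. Counts were summed over the members of each library and divided by their total. Ratios were computed for genes with at least 20 UMIs, with exact conditional intervals, levels with exact Poisson intervals and shares with exact Clopper-Pearson intervals. A gene was called at a ratio of at least 2-fold whose interval lay on 1 side of 0. Since nuclei are not replicates, no test was made, and the code was checked on simulated counts. A gene with 0 UMIs was set to a floor of 3 UMIs, which is 3.37 and 3.99 CPM. Classes of other nuclei were assigned by markers. No doublet caller was run, and the 5% of members with most UMIs were left out as an alternative. Of 20 barcodes in both libraries, 1 was a member in each library and none in both.

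Genes were named by rule. They were the 12 highest and 12 lowest ratios among genes with at least 100 CPM in a library and at least 2 times the level of other nuclei, the 6 highest and 6 lowest at 100 CPM without that condition, the 15 genes farthest above other nuclei, the 6 highest and 6 lowest of the comparison at 10% mt- UMIs, and for each list the members with most UMIs, those farthest from 0 and those whose role is described. Some results that the rule names are not reported here. The rankings skipped rule genes, mt- genes and genes of ribosomal proteins. Sub-groups were found per library from 1500 variable genes present in at least 10 nuclei, 10 principal components, 15 neighbours and Leiden clustering at a resolution of 0.8. Leading genes had at least 15 UMIs. A sub-group was taken as led by another lineage where adipocyte markers stood at least 0.8, or fibroblast, mural, macrophage or T cell markers at least 2, on the log2 scale over the other members. These thresholds were set after seeing the data.

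Gene positions came from RefSeq annotation of GRCm38.p6, matched by symbol for 355 of 370 listed genes. Alternatives changed the number of rule genes, the other-lineage genes allowed, the mt- limit, the UMI minimum, thinning, the scaling and the gene minimum. Leaving out *Gm42418*, the sub-groups of other lineages (with and without the one that rested on 1 nucleus), or the nucleus richest in a gene was chosen after seeing the data. Python 3.11.15, numpy 2.4.6, scipy 1.17.1, pandas 2.3.3, scikit-learn 1.9.0, igraph 0.11.9, leidenalg 0.10.2 and matplotlib 3.10.9 were used.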

Additional observations from a re-analysis of the deposited data

Results flagged for a closer look

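*Syne1* had opposite directions in endothelial and other nuclei, with log2 ratios between the libraries of -0.69 and 0.69. The median of the pan-endothelial list was 0.49 in endothelial nuclei and -0.40 in other nuclei, and that of the 10 rule genes was 0.60 and -0.60, where the rule itself separates these nuclei by the rule genes. Nuclei with fewer rule genes than asked count among the other nuclei, and their part in the opposite signs was not tested. The VEGF and angiopoietin list had medians of 0.24 and -0.42. The mt- genes had medians of -0.47 in endothelial nuclei and 1.09 in other nuclei. With 1 library per genotype, none of these differences was tested.

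Nuclei that met the rule but for more than 25% mt- UMIs numbered 128 in *Wtap*flox/flox and 27 in the library labelled *Wtap*-BKO. Their pan-endothelial genes summed to 3922 (3664 to 4194) and 4788 (4161 to 5483) CPM without mt- UMIs. Nuclei over 25% with fewer than 3 rule genes had 1483 and 1303 CPM, and the members had 5520 and 7916 CPM.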

How the results depend on the processing

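The shares of endothelial nuclei of 7.66% and 7.62% moved with the rule. They were 5.47% and 6.16% with at least 4 rule genes, 6.97% and 6.78% with none of the 6 other-lineage genes, 4.80% and 6.22% for members with at most 10% mt- UMIs over all nuclei, 4.35% and 5.60% after thinning, 7.12% and 3.87% with at least 1000 UMIs, and 5.41% and 5.47% without the sub-groups led by other lineages, or 5.41% and 5.87% when the sub-group of 36 nuclei was kept but for 1 nucleus. Over nuclei with at most 25% mt- UMIs, the shares were 8.17% and 8.34%. Against 1029 genes higher and 194 lower, the count of higher genes was 532 among nuclei over 10% mt- UMIs, 593 with median-of-ratios scaling and 495 at a minimum of 50 UMIs. The count of lower genes was 298 among nuclei with at most 10% mt- UMIs, 99 over 10%, 428 with median-of-ratios scaling, 129 at 50 UMIs and 319 without mt- genes and *Gm42418*. The median of the VEGF and angiopoietin list was -0.030 with median-of-ratios scaling, which moves all genes alike by -0.27. The medians of the pan-endothelial (0.16 to 0.70), immediate-early (2.07 to 2.78), interferon (0.43 to 0.93), lipid uptake (0.05 to 0.35) and basement membrane (0.10 to 0.60) lists stayed above 0 under the alternatives run. Read against all genes, the pan-endothelial (0.16), basement membrane (0.10) and lipid uptake (0.19) medians lay below the 0.25 of all genes among nuclei over 10% mt- UMIs. With at least 1000 UMIs the lipid uptake median of 0.084 lay below 0.32, and it was also below that of all genes with none of the 6 other-lineage genes and without the sub-groups led by other lineages.

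Of 3335 values of 304 single genes under the alternatives, 2890 lay within the gene's counting interval, 416 lay outside it with the direction kept or not called, and 29 turned a called direction. Among nuclei over 10% mt- UMIs the log2 ratio was -0.031 for *Ablim3*, -0.42 for *Bmp6*, -0.044 for *Ctnnb1*, -0.090 for *Dcn*, -0.11 for *Flt1*, -0.087 for *Gbp4*, -0.12 for *H2-Q4*, 0.36 for *Hba-a2*, -0.035 for *Il1r1*, -0.36 for *Irf7*, -0.48 for *Irgm1*, -0.15 for *Kitl*, 0.065 for *Ppargc1a*, -0.023 for *Robo4*, 0.39 for *Vldlr*, -0.013 for *Xaf1*, -0.25 for *Zeb1* and -0.67 for *Zfp366*. Without the sub-groups led by other lineages it was -0.048 for *Adipoq*, -0.55 for *Dcn*, -0.72 for *F13a1*, 0.0071 for *Foxo1* and -0.0030 for *Lipe*, and with the 36 nuclei kept but for 1 it was -0.035 for *Adipoq*, -0.25 for *Dcn*, -0.84 for *F13a1* and -0.017 for *Lipe*. It was -0.059 for *Tspan18* with at most 10% mt- UMIs and -0.0046 for *Zeb1* with median-of-ratios scaling. That scaling moves all genes alike, so this change of *Zeb1* follows from it. The cause of the other changes was not tested.

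No paired analysis was possible because each genotype had 1 library, and no replicate was left out. At a median of 897 and 819.5 UMIs per nucleus, genes under 20 UMIs in all were not compared, and lymphatic, selectin and most class II genes rested on few UMIs.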

Other observations

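Cell cycle genes were near the detection limit in endothelial nuclei. Of 13 listed genes 5 passed the minimum, all 5 lay above 0, and their median log2 ratio was 0.77, beside 1.76 in the other nuclei. *Mki67*, a marker of proliferating cells, had 12 and 23 UMIs, a ratio of 1.18 (0.11 to 2.32), but 8 of the 12 and 7 of the 23 lay in 1 nucleus each, and the ratio without these nuclei was 2.25.

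Of 10 listed genes of the m6A machinery, *Wtap* included, 8 passed the minimum and none was at least 2-fold higher or lower in endothelial nuclei, beside 11.6% and 2.19% of all genes. *Fto*, an m6A demethylase, had 151 and 167 UMIs, a ratio of 0.39 (0.06 to 0.72), and *Alkbh5*, the other demethylase, had a ratio of -0.64 (-1.53 to 0.21). *Mettl3* and *Mettl14*, the subunits of the methyltransferase core, had 10 and 12 UMIs and 8 and 6 UMIs. Schwann cell markers summed to 126 and 129 CPM in the endothelial nuclei.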
